A study of Mus musculus with 12 samples.

Results

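The 37 genes described here make the lysosome and the late phagosome: 10 cathepsins, 6 lysosomal membrane proteins, 5 genes of lipid handling and the saposin and progranulin precursors, 6 glycosidases, 5 subunits of the proton pump V-ATPase, the transcription factors Tfeb and Mitf, the channel Mcoln1, the autophagy receptor Sqstm1 and the glycoprotein Gpnmb. They were taken as a list of symbols, joined to the count table through the symbols the authors deposited. The list found all 37 of its genes among 37991 in the table, and all 37 passed the filter on low counts that left 18981 genes for testing. The cells were bone marrow-derived dendritic cells (BMDCs, grown from the marrow of C57BL/6 mice), from wild-type (WT) mice or from animals labelled Vav1/2/3-/-, which by their label lack all the Vav guanine nucleotide exchange factors. They were left untreated or given curdlan, a fungal-type beta-glucan particle, for 3 hours at a dose the labels write as 200 mg/ml, a unit that could not be checked. Each of the 4 groups (WT unstimulated, WT curdlan, KO unstimulated, KO curdlan) had 3 RNA-seq libraries, 12 in all. Library numbers below follow the library names, which run 1, 2 and 4 in both WT groups, 1, 2 and 5 in KO unstimulated and 2, 4 and 5 in KO curdlan.

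Curdlan is bound by Dectin-1 on myeloid cells and is taken up into phagosomes, which fuse with lysosomes. Cathepsins and glycosidases then degrade the cargo at the low pH kept by the V-ATPase, and in dendritic cells the same proteases trim antigens for loading on class II molecules. Many lysosomal genes carry E-box-like letters near their start, where factors of the TFEB family bind.

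The libraries held 41421718 to 61217861 counted reads. No targeted gene was called lower in the libraries labelled KO, and Vav1, Vav2 and, without curdlan, Vav3 were higher there. Vav1 lay at 131 to 135 CPM (counted reads of a gene scaled to a library of common size) in WT unstimulated and 198 to 232 CPM in KO unstimulated, Vav2 at 65 to 70.8 and 276 to 287 CPM, and Vav3 at 21.6 to 28.9 and 31.5 to 40 CPM. With curdlan, Vav1 lay at 177 to 179 CPM in WT and 246 to 330 CPM in KO, Vav2 at 66 to 72.7 and 265 to 325 CPM, and Vav3 at 28.3 to 36.9 and 22.7 to 32.5 CPM (log2 -0.19, adjusted p = 0.315). These counts cover the whole gene and do not show whether a part of it is deleted, so the genotype is given below as the libraries are labelled. Each group was sequenced on a lane of its own (5 for WT unstimulated, 6 for KO unstimulated, 7 for WT curdlan, 8 for KO curdlan), so lane and group are confounded and cannot be told apart. Whether replicates came from separate animals or cultures is not in the labels, and p-values then measure only the spread between these libraries, which may be technical. Of the dendritic cell markers, Itgax (1490 CPM on average), Zbtb46 (36.7 CPM) and the class II genes were present in WT unstimulated libraries, and Flt3 was at 2.12 CPM.

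In a search of RefSeq promoters (GRCm38.p6, from 250 bases before to 50 bases after each gene's start), 31 of the 37 genes matched a window. The E-box letters CACGTG, which read the same on both strands, were in 10 of these 31 genes. Counted by window, as some genes had several, they were in 10 of the 37 windows of these genes and in 7.15% of 32851 windows of the same length. The longer form TCACGTGA, which contains the first, was in 5 genes (Ctsa, Ctsd, Mcoln1, Atp6v1a and Gla), in 5 of their 37 windows with the other matched genes, and in 0.974% of all windows. The longest form searched, GTCACGTGAC, was in 0 of the 37 windows and in 0.326% of all windows. The stretches below are shown for the 7 of these 10 genes that passed in a comparison of KO with WT further on, and for Mcoln1, which did not pass. Capitals mark CACGTG, and each is written 5′ to 3′ on the strand of its gene.
Lamp1, chr8:13159092-13159159, plus strand: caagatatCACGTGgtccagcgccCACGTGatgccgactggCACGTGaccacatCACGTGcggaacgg
Mcoln1, chr8:3500440-3500487, plus strand: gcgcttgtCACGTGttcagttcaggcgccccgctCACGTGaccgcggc
Gla, chrX:134601186-134601240, minus strand: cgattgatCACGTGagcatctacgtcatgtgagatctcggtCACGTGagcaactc
Ctsd, chr7:142387912-142387933, minus strand: ccgcgtctCACGTGacccgttg
Atp6v1a, chr16:44139377-44139398, minus strand: ttttaaatCACGTGataggctt
Ctsl, chr13:64370743-64370764, minus strand: ttagaagcCACGTGctgatcta
Glb1, chr9:114401022-114401043, plus strand: ttctgagtCACGTGgcctacag
Ctsf, chr19:4855078-4855099, plus strand: ccgtggtcCACGTGcctcgcgt
The promoter of Lamp1, a main glycoprotein of the lysosomal membrane, held 4 copies, and those of Mcoln1 and Gla held 2 copies each in the stretch shown. Ctsd held another copy 245 bases before its start, outside the stretch shown. Gaa and Ctsa also held the letters, Ctsa both at 12 bases before and at 6 bases after its start, and neither gene passed. A match is a run of letters and not a measured binding site.

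Levels of different genes were compared as CPM per kilobase of exon (GENCODE M21, all exons of the gene joined). In WT unstimulated libraries Psap, the precursor of the saposins that help glycolipid breakdown, was highest at 5350 ± 130 CPM per kilobase (SD, n = 3). The cysteine protease Ctss at 1940 ± 120 and the aspartic protease Ctsd at 1770 ± 99 CPM per kilobase followed, and these neighbours in the order lay less than the sum of their SDs apart. Ctsz stood next at 902 ± 76 CPM per kilobase. At the low end were Tfeb at 7.52 ± 0.041, the calcium channel gene Mcoln1 at 4.98 ± 0.30 and Ctsf at 1.19 ± 0.078 CPM per kilobase. In KO unstimulated libraries Psap again led at 5980 ± 360 CPM per kilobase, Ctsd at 1720 ± 370 and Ctss at 1560 ± 270 CPM per kilobase overlapped, and Ctsf was lowest at 1.76 ± 0.30 CPM per kilobase. Ctsl moved from rank 24 of the 37 in WT unstimulated to rank 17 in KO unstimulated, and Ctsk from rank 28 to rank 36. Psap alone held 1.21% to 1.72% of all counts of a library, and all 37 genes together held 3.38% to 4.64%.

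**Figure D1:**
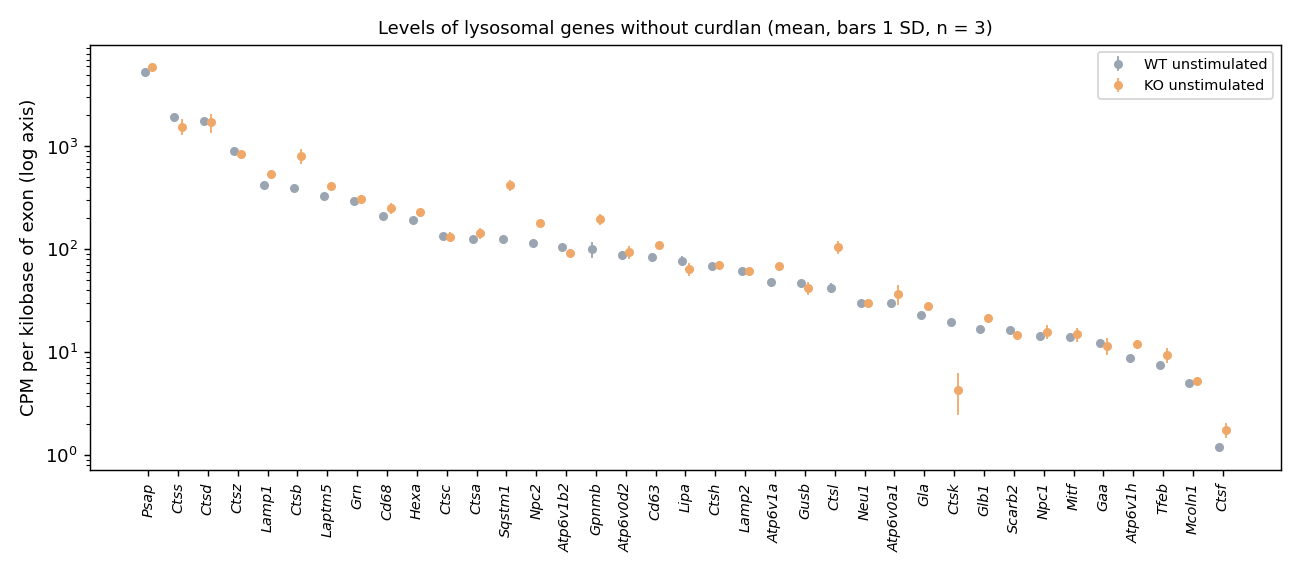
Mean level of each gene in unstimulated libraries, in CPM per kilobase of exon on a log axis, with bars of 1 SD over 3 libraries; grey is WT, orange is KO, and genes are ordered by the WT level. Psap is highest at 5350 and Ctsf lowest at 1.19 CPM per kilobase in WT, and Ctsk, Sqstm1, Ctsl, Ctsb and Gpnmb show the widest gaps between the groups.

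The first comparison set libraries labelled KO against WT in each state. Without curdlan, 13 of the 37 genes were higher in KO and 1, Ctsk, was lower. The protease genes Ctsl (2.51-fold) and Ctsb (2.04-fold), Sqstm1 (3.36-fold) and Gpnmb (1.98-fold) had the largest increases of the 37, while Ctsk was 4.54-fold lower. Among all genes tested 44.4% passed the threshold (edgeR quasi-likelihood test, Benjamini-Hochberg adjusted p under 0.05), 21.1% higher and 23.3% lower. The members' median log2 fold change was 0.16, beside -0.01 over all genes tested.

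With curdlan, 16 genes were higher in KO than in WT with curdlan and 3 were lower (Ctsk, Ctsd and Lipa), against 24.7% of all genes higher and 26.8% lower, 51.4% in all. The members' median log2 fold change was 0.21, beside 0.01 over all genes. The groups did not overlap for 17 higher and 3 lower members without curdlan, where this held for 56.1% of all genes (26.3% higher and 29.8% lower). With curdlan they did not overlap for 16 higher and 5 lower members, and for 56.9% of all genes (27.4% higher and 29.5% lower). In both states 12 genes passed as higher and Ctsk as lower, and 17 genes passed in neither. Scaling bears on these counts. TMM scaling sets the median gene near 0. When libraries were scaled by their totals alone, the median of all genes moved to -0.19 without curdlan and -0.24 with it. The members' median moved to -0.02 and -0.04. The counts became 7 higher and 9 lower without curdlan and 9 higher and 11 lower with it. Under that scaling Ctsf, Lamp1, Cd63, Laptm5, Gla and Glb1 no longer passed without curdlan, nor Ctsf, Lamp1, Psap, Grn, Gla, Atp6v1a and Atp6v0a1 with it.

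**Figure D2:**
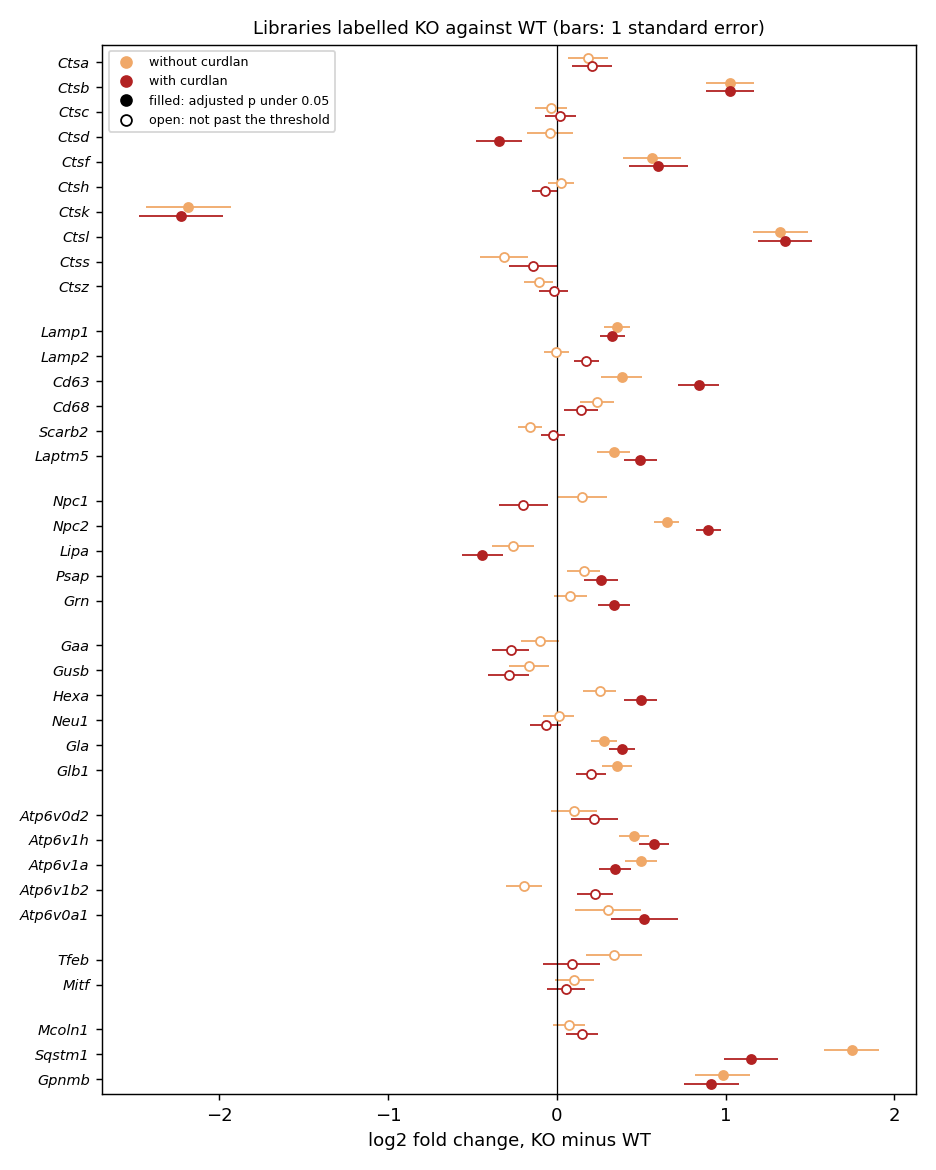
Log2 fold change of each gene between libraries labelled KO and WT (x axis), without curdlan (orange) and with curdlan (red), with bars of 1 standard error from the edgeR fit of 12 libraries. Filled points passed an adjusted p of 0.05; Sqstm1, Ctsl, Ctsb and Gpnmb lie far to the right in both states and Ctsk at -2.18 and -2.23 far to the left.

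Of the 10 cathepsins, 3 were higher and 1 lower in KO without curdlan, and 3 higher and 2 lower with it. These shares of 40% and 50% were near the 44.4% and 51.4% of all genes that passed. Ctsb (chr14:63122462-63145923, plus strand), an abundant cysteine protease, lay at 2525, 2439 and 2220 CPM in the WT unstimulated libraries and at 5363, 5275 and 3995 CPM in the KO unstimulated ones. All 3 KO libraries were above all 3 WT libraries, and the difference was 1.03 on the log2 scale (SE 0.14, adjusted p = 0.000103). With curdlan Ctsb was at 2743, 2478 and 2294 CPM in WT and 5548, 5635 and 4130 CPM in KO, again with no overlap (log2 1.03, SE 0.14, adjusted p = 9.35e-05).

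Ctsl (chr13:64359337-64370890, minus strand), the protease that trims the class II chaperone chain in some antigen-presenting cells, was at 309.5, 270.9 and 246.6 CPM in WT unstimulated and 767.5, 583.3 and 722.4 CPM in KO unstimulated. Every KO library was above every WT library (log2 1.33, SE 0.16, adjusted p = 3.37e-05). With curdlan the WT libraries held 485.1, 417.8 and 423.1 CPM and the KO libraries 995, 946.5 and 1444 CPM, where library 5 stood highest (log2 1.35, SE 0.16, adjusted p = 2.79e-05).

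Ctsk (chr3:95499256-95509362, plus strand), a collagen-degrading cathepsin best known from osteoclasts, went the other way. It was at 32.42, 28.94 and 27.31 CPM in WT unstimulated and 5.406, 9.75 and 4.523 CPM in KO unstimulated (log2 -2.18, SE 0.25, adjusted p = 2.17e-05). With curdlan it was at 45.48, 37.13 and 36.52 CPM in WT and 10.68, 8.489 and 6.207 CPM in KO (log2 -2.23, SE 0.25, adjusted p = 1.76e-05), so that no KO library reached the lowest WT library in either state. Of 9 osteoclast markers tested, 1 was higher and 3 were lower in KO unstimulated than in WT, where 44.4% of all genes passed. Their summed level was 619 to 653 CPM in WT unstimulated and 421 to 723 CPM in KO unstimulated, with Calcr at 0 in both groups. Average levels of Dcstamp went from 307 CPM in WT unstimulated to 88.2 CPM in KO unstimulated. Ocstamp went from 36.7 to 8.27 CPM, Car2 from 36.9 to 11 CPM and Mmp9 from 105 up to 304 CPM. The part of these markers in the Ctsk result was not tested.

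Ctsf, the least abundant cathepsin here, lay at 5.665, 5.88 and 6.426 CPM in WT unstimulated and 9.559, 9.919 and 7.159 CPM in KO unstimulated (log2 0.57, SE 0.17, adjusted p = 0.0173). With curdlan it was at 5.662, 5.123 and 4.617 CPM in WT and 9.645, 7.936 and 5.724 CPM in KO (log2 0.60, SE 0.18, adjusted p = 0.0127). KO libraries were above WT libraries in both states, by a narrow margin for KO curdlan library 5. The call without curdlan was lost when WT library 1 or 2 or KO library 1 or 2 was left out (adjusted p = 0.0546 to 0.0647), and the call with curdlan without WT library 4 or KO library 2 (adjusted p = 0.0513 and 0.0665).

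Ctsd, the main aspartic protease of the lysosome, was at 4079, 4415 and 3967 CPM in WT unstimulated and 4841, 3115 and 4155 CPM in KO unstimulated, with groups that overlapped. With curdlan it was at 4123, 4088 and 3739 CPM in WT and 2899, 3119 and 3392 CPM in KO, a fall of 0.34 on the log2 scale (SE 0.14, adjusted p = 0.0498). That call was lost without any 1 of WT curdlan 1, 2 or 4 or KO curdlan 2 or 4 (log2 -0.39 to -0.30, adjusted p = 0.061 to 0.12), and under upper-quartile scaling and the stricter filter on low counts. The other 5 cathepsins (Ctsa, Ctsc, Ctsh, Ctss and Ctsz) did not pass in either state, with log2 differences from -0.31 (Ctss without curdlan, adjusted p = 0.0929) to 0.21 (Ctsa with curdlan). Reads of Ctsb could in part be those of Fdft1, which lies on the other strand over 12.8% of the exon bases of Ctsb and held 42033 counts over the 12 libraries beside 2149254 for Ctsb.

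**Figure D3:**
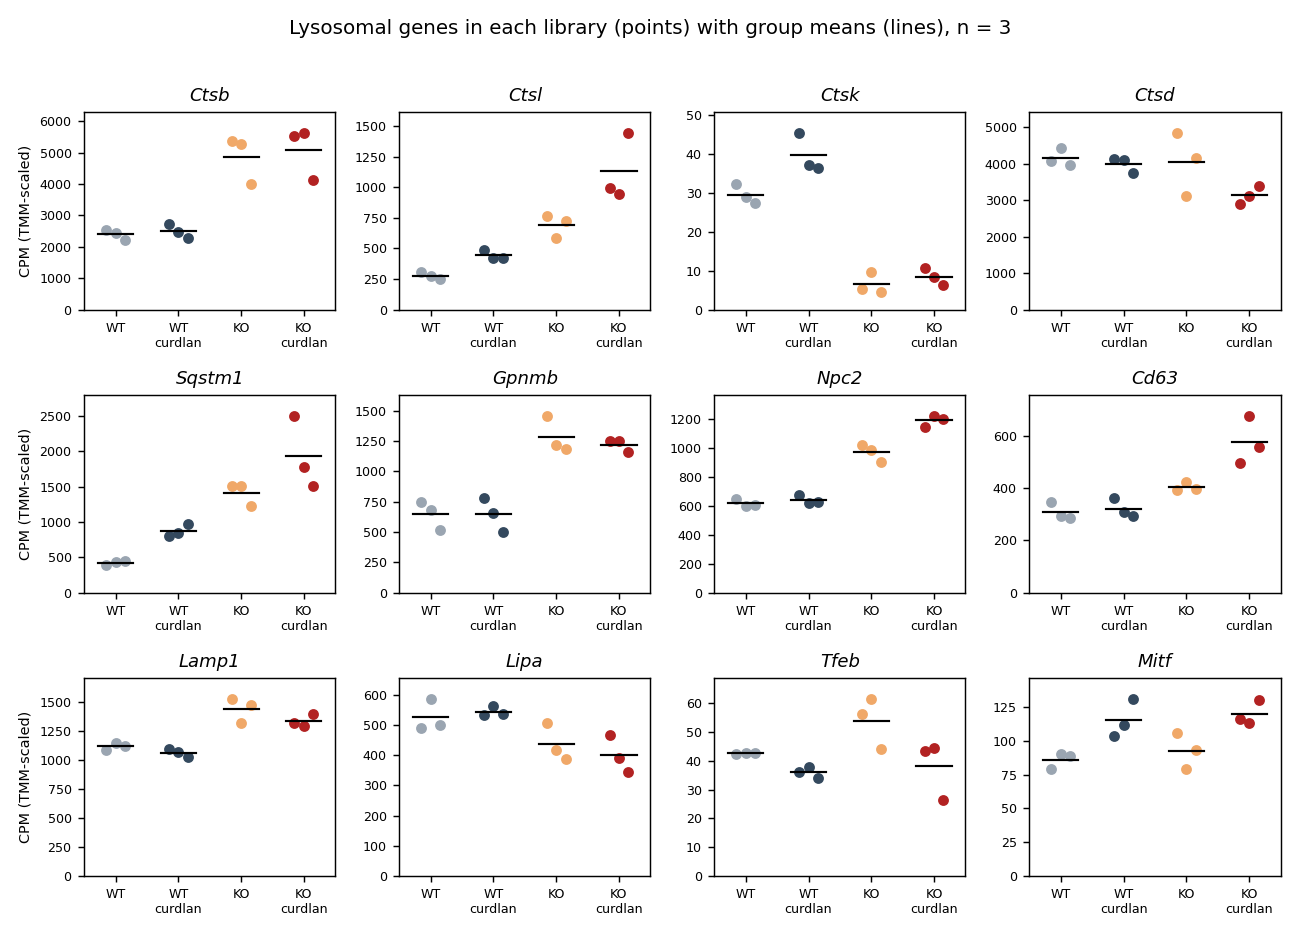
CPM (linear axes from 0) of 12 genes in every library, by group; points are libraries and lines are means of 3. Ctsb, Ctsl, Sqstm1, Gpnmb, Npc2 and Lamp1 have KO points above all WT points of the same state, Ctsk has them below, and Lipa and Ctsd overlap without curdlan.

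Of the 6 membrane proteins 3 were higher in KO in both states, and 0 were lower. Over all genes 21.1% were higher without curdlan and 24.7% with it. Lamp1 was at 1087, 1147 and 1122 CPM in WT unstimulated and 1522, 1313 and 1468 CPM in KO unstimulated (log2 0.36, SE 0.08, adjusted p = 0.00216). With curdlan the WT libraries were at 1094, 1068 and 1022 CPM and the KO libraries at 1316, 1290 and 1396 CPM (log2 0.33, SE 0.08, adjusted p = 0.0032), and KO was above WT in every library of both states. Both Lamp1 calls ended under scaling by library totals alone (log2 0.18, adjusted p = 0.0609, and log2 0.08, adjusted p = 0.359).

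Cd63 (chr10:128900989-128912822, plus strand), a tetraspanin of late endosomes, was at 347.3, 294.7 and 287.9 CPM in WT unstimulated and 394.1, 423.2 and 396 CPM in KO unstimulated (log2 0.38, SE 0.12, adjusted p = 0.0196). After curdlan its level was 363.7, 310.3 and 292.9 CPM in WT and 497.8, 676.8 and 557.7 CPM in KO (log2 0.84, SE 0.12, adjusted p = 0.000109). The groups were apart in both states, and the lowest KO library with curdlan was above the highest KO library without it. Without WT library 2 or 4 or KO library 2 the unstimulated call was lost (log2 0.33 to 0.35, adjusted p = 0.0604 to 0.0786).

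Laptm5, a lysosomal membrane protein of blood cells, lay at 1283, 1259 and 1192 CPM in WT unstimulated and 1698, 1605 and 1419 CPM in KO unstimulated (log2 0.34, SE 0.10, adjusted p = 0.0142). With curdlan it lay at 1208, 1099 and 1046 CPM in WT and 1580, 1739 and 1406 CPM in KO (log2 0.50, SE 0.10, adjusted p = 0.00121), with KO above WT throughout. The unstimulated call was lost without WT library 4 or KO library 1 (adjusted p = 0.0602 and 0.0648). Lamp2, Cd68 and Scarb2 did not pass in either state, with log2 differences between -0.16 and 0.24.

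Of the lipid-handling genes, Npc2 (chr12:84754562-84773152, minus strand), a soluble protein that hands cholesterol to the membrane protein NPC1, had the largest log2 difference of the 5. It was at 649.1, 599.6 and 608.6 CPM in WT unstimulated and 1024, 988.2 and 902.7 CPM in KO unstimulated (log2 0.65, SE 0.07, adjusted p = 2.06e-05). In the curdlan groups it was at 672.9, 622.5 and 626.3 CPM in WT and 1149, 1223 and 1205 CPM in KO (log2 0.90, SE 0.07, adjusted p = 1.86e-06), and the groups were well apart in both states. Npc1 itself did not pass, with log2 differences of 0.15 without curdlan and -0.20 with it. Rmc1 lies over 4.52% of its exon bases on the other strand and held 26741 counts in all, beside 97844 for Npc1.

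Lipa, the acid lipase that frees cholesterol from its esters, was at 490.2, 586.7 and 500.7 CPM in WT unstimulated and 508.8, 419.3 and 389.3 CPM in KO unstimulated, where the groups overlapped. In the presence of curdlan it was at 532.8, 563.8 and 537.9 CPM in WT and 466.6, 392 and 345.7 CPM in KO, lower in every KO library (log2 -0.44, SE 0.12, adjusted p = 0.00972). Without curdlan the difference missed the threshold (log2 -0.26) and passed without KO library 1 (log2 -0.38, adjusted p = 0.0332).

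Psap was at 13660, 12750 and 12140 CPM in WT curdlan and 15330, 16900 and 13990 CPM in KO curdlan (log2 0.26, SE 0.10, adjusted p = 0.0435). Grn, the precursor of progranulin and granulins, was at 978.6, 882.7 and 890.8 CPM in WT curdlan and 1165, 1273 and 1039 CPM in KO curdlan (log2 0.34, SE 0.10, adjusted p = 0.011). KO libraries were higher throughout for both genes with curdlan, and without curdlan neither passed (log2 0.16 and 0.08). The Psap call was lost without WT curdlan 2 or 4 or KO curdlan 2 or 4 (adjusted p = 0.0648 to 0.146), and the Grn call without KO curdlan 4 (log2 0.26, adjusted p = 0.0517).

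Of the 6 glycosidases 2 were higher in KO in each state, and 3 passed in at least 1. Over all genes 21.1% were higher without curdlan and 24.7% with it. Hexa, the alpha subunit of the hexosaminidase that degrades gangliosides, lay at 363.2, 345.4 and 343.8 CPM in WT curdlan and 480.6, 569.7 and 434.9 CPM in KO curdlan (log2 0.50, SE 0.10, adjusted p = 0.00117), and all KO libraries were higher. In the unstimulated groups it was at 400.6, 379.3 and 383.6 CPM in WT and 478.6, 495.6 and 414.2 CPM in KO, a difference that did not pass (log2 0.25, adjusted p = 0.0519).

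Gla, the alpha-galactosidase whose promoter is shown above, was at 77.57, 75.1 and 74.12 CPM in WT unstimulated and 97.13, 91.84 and 85.97 CPM in KO unstimulated (log2 0.28, SE 0.08, adjusted p = 0.0113). The curdlan libraries held 87.24, 80.6 and 75.96 CPM in WT and 112.5, 109.2 and 96.47 CPM in KO (log2 0.38, SE 0.08, adjusted p = 0.00132). KO libraries were higher in both states, and the unstimulated call was lost without KO library 1 (log2 0.23, adjusted p = 0.056). Glb1, the beta-galactosidase, was at 48.01, 52.14 and 50.65 CPM in WT unstimulated and 71.98, 61.15 and 59.71 CPM in KO unstimulated (log2 0.36, SE 0.09, adjusted p = 0.00595), and its difference with curdlan did not pass (log2 0.20). Tmppe lies over 5.49% of the exon bases of Glb1 on the same strand and held 6383 counts over the 12 libraries, beside 32149 for Glb1. Gaa, Gusb and Neu1 did not pass in either state, with log2 differences from -0.29 to 0.01.

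Among the V-ATPase subunits, both Atp6v1h and Atp6v1a of the cytoplasmic V1 part were higher in KO in both states. Atp6v1h lay at 86.65, 84.96 and 84.59 CPM in WT unstimulated and 118, 127.1 and 107.1 CPM in KO unstimulated (log2 0.46, SE 0.09, adjusted p = 0.00115), and at 105.5, 98.42 and 101.1 CPM in WT curdlan and 155, 167.9 and 131.8 CPM in KO curdlan (log2 0.58, SE 0.09, adjusted p = 2e-04). Atp6v1a, the catalytic subunit, lay at 273.4, 299.6 and 300.3 CPM in WT unstimulated and 438.6, 427.5 and 370.2 CPM in KO unstimulated (log2 0.50, SE 0.09, adjusted p = 0.000959). No WT library of either gene reached a KO library of the same state, and with curdlan Atp6v1a differed by log2 0.34 (SE 0.09, adjusted p = 0.00902).

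Atp6v0a1, a subunit of the membrane part of the pump, was at 184.6, 194.7 and 208.5 CPM in WT curdlan and 330, 327.2 and 184.7 CPM in KO curdlan. It passed (log2 0.52, SE 0.20, adjusted p = 0.0433) although KO library 5 lay within the WT libraries. The call was lost without any 1 of WT curdlan 1, 2 or 4 or KO curdlan 2 or 4 (log2 0.38 to 0.57, adjusted p = 0.068 to 0.164). Atp6v0d2 and Atp6v1b2 passed in neither state, with log2 differences from -0.20 to 0.23.

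The transcription factors did not pass. Tfeb (chr17:47737030-47792419, plus strand), a regulator of lysosomal genes, was at 42.37, 42.83 and 42.61 CPM in WT unstimulated and 56.14, 61.41 and 43.93 CPM in KO unstimulated (log2 0.34, SE 0.17, adjusted p = 0.121). Every KO library was above the WT libraries, but library 5 only just, and without it the difference was log2 0.46 with adjusted p = 0.0483. Mitf, a related factor, differed by log2 0.10 without curdlan and 0.05 with it, and neither passed.

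Sqstm1 (chr11:50199366-50210827, minus strand) encodes p62, which carries ubiquitinated cargo to autophagosomes and is also a known target of the NRF2 stress response. It was at 393.1, 426.3 and 443.9 CPM in WT unstimulated and 1512, 1510 and 1224 CPM in KO unstimulated, 3.36-fold higher (log2 1.75, SE 0.16, adjusted p = 4.55e-06). With curdlan it was at 798.7, 836.3 and 966.9 CPM in WT and 2497, 1776 and 1507 CPM in KO, 2.22-fold higher (log2 1.15, SE 0.16, adjusted p = 9.69e-05). The lowest KO library without curdlan was above the highest WT library with it. Mrnip lies over 17.3% of the exon bases of Sqstm1 on the other strand and held 554 counts in all, beside 650414 for Sqstm1.

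Gpnmb (chr6:49036546-49070929, plus strand), a membrane glycoprotein of macrophages under lysosomal stress, was at 750.8, 680.9 and 518.3 CPM in WT unstimulated and 1457, 1214 and 1185 CPM in KO unstimulated (log2 0.98, SE 0.16, adjusted p = 0.000376). With curdlan it was at 778.6, 660.9 and 500 CPM in WT and 1250, 1251 and 1157 CPM in KO (log2 0.92, SE 0.16, adjusted p = 0.000552). KO libraries were higher throughout, and WT library 4 was the lowest in both states. Mcoln1, the calcium channel of the lysosomal membrane, did not pass (log2 0.07 and 0.15).

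Markers of other cell types moved with the genotype label. In KO unstimulated 21.1% of all genes were higher and 23.3% lower than in WT. Of 16 macrophage markers, 13 were higher in KO unstimulated and 0 lower, and their summed level was 3850 to 4100 CPM in WT unstimulated and 7830 to 9270 CPM in KO unstimulated. With curdlan the sum was 4120 to 4290 CPM in WT and 8060 to 8950 CPM in KO. Of 14 neutrophil markers, 12 were higher in KO unstimulated, with sums of 5040 to 6290 CPM in WT and 7440 to 11200 CPM in KO, and of 10 mast cell and basophil markers 9 were higher, with sums of 69.1 to 78.3 and 309 to 474 CPM. The dendritic cell list summed to 11000 to 11200 CPM in WT unstimulated and 18500 to 23300 CPM in KO unstimulated (9 of 17 genes higher, 4 lower). Most of both sums was Cd74 (6020 and 11000 CPM on average) with the class II genes H2-Aa, H2-Ab1 and H2-Eb1. By contrast Itgax fell from 1490 to 788 CPM on average, Ccr7 from 131 to 77.1 CPM, Batf3 from 17.1 to 9.62 CPM and Clec9a from 9.33 to 0.176 CPM, and Zbtb46 was at 36.7 and 33 CPM. B cell markers summed to 39.8 to 48.7 CPM in WT unstimulated and 16.7 to 23.7 CPM in KO unstimulated (7 of 8 genes lower, median log2 -2.88). Most of that KO sum was Cd22 (16.3 CPM on average in WT and 19.2 CPM in KO), while Ms4a1 went from 10.5 to 0 CPM and Cd79b from 8.81 to 0.378 CPM. In the same groups erythroid and megakaryocyte markers summed to 164 to 218 and 435 to 1110 CPM, eosinophil markers to 78.7 to 120 and 37.2 to 120 CPM, and stromal markers to 11.6 to 13.3 and 17.7 to 29.9 CPM. T cell markers summed to at most 17.9 CPM and NK cell markers to at most 1.29 CPM, with Gzma at 0 in all groups. The part of these differences in the lysosomal results was not tested, and in bulk libraries a change in the number of cells of a type and a change in RNA per cell cannot be told apart.

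The second question was how curdlan moved the genes within each genotype. In WT, 4 of 37 genes rose (Sqstm1, Ctsl, Mitf and Neu1) and 0 fell, where 19.8% of all genes passed, 11.4% higher and 8.4% lower. The members' median log2 change was 0.00, beside -0.03 over all genes tested. In the libraries labelled KO, 6 genes rose (Ctsl, Cd63, Mitf, Atp6v1h, Npc2 and Scarb2) and 3 fell (Tfeb, Glb1 and Ctsh), where 28.6% of all genes passed, 14% higher and 14.6% lower, and the median was 0.07 beside 0.00. In all, 26 members passed in neither genotype in this fit, which did not pair libraries by number. A fit that did is given below for WT. Non-overlapping groups were seen for 7 higher and 7 lower members in WT, and for 44.5% of all genes there (21.1% higher and 23.4% lower). In KO they were seen for 7 higher and 2 lower members, and for 38.1% of all genes (18.6% higher and 19.5% lower). Scaled by library totals alone, Mitf and Neu1 no longer passed in WT, nor Cd63, Scarb2, Npc2, Atp6v1h and Mitf in KO, and the counts were 2 higher and 6 lower in WT and 1 higher and 10 lower in KO. The members' medians were then -0.13 in both genotypes, beside -0.17 in WT and -0.20 in KO over all genes. In a fit of the 2 KO groups alone, Ctsl and Cd63 were the 2 members that passed, and 0 passed as lower. Neu1 in WT also missed the threshold under upper-quartile scaling and with no filter on low counts.

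**Figure D4:**
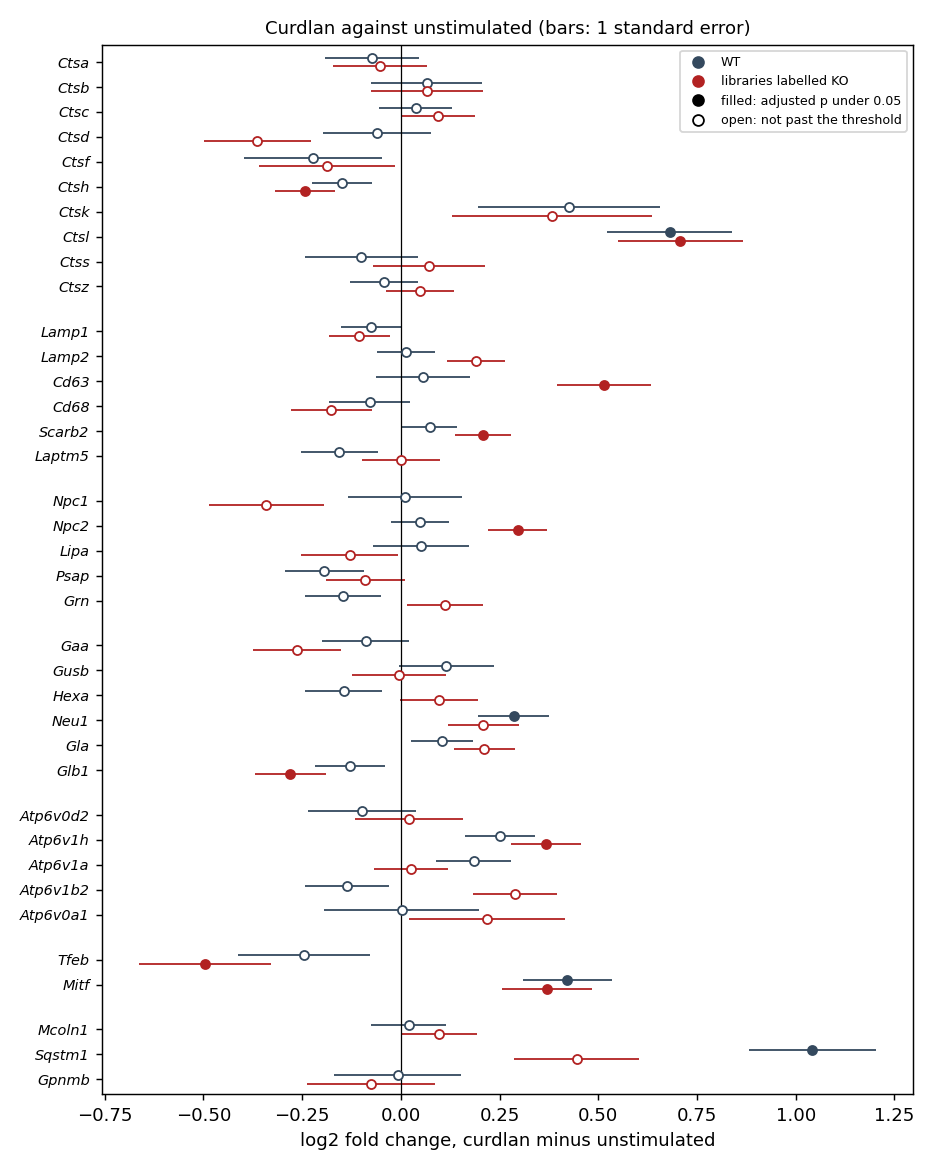
Log2 fold change with curdlan of each gene (x axis) in WT (dark blue) and in libraries labelled KO (red), with bars of 1 standard error from the edgeR fit of 12 libraries; filled points passed an adjusted p of 0.05. Most points lie within 0.3 of 0, Ctsl and Mitf are filled to the right in both genotypes, and Sqstm1 is at 1.04 in WT and 0.44 in KO.

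Sqstm1 had the largest change of the 37 in WT, from the 393.1 to 443.9 CPM given above to 798.7 to 966.9 CPM, 2.06-fold (log2 1.04, SE 0.16, adjusted p = 0.000726). In KO its values with and without curdlan overlapped, since KO curdlan library 5 at 1507 CPM lay between the unstimulated ones (log2 0.44, SE 0.16, adjusted p = 0.0541). Without that library the change was log2 0.58 with adjusted p = 0.0124. Ctsl rose in both genotypes, by log2 0.68 in WT (SE 0.16, adjusted p = 0.00974) and log2 0.71 in KO (SE 0.16, adjusted p = 0.00587), and curdlan libraries were above unstimulated ones in both.

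Mitf was at 79.47, 90.11 and 88.79 CPM in WT unstimulated and 103.6, 111.5 and 130.9 CPM in WT curdlan (log2 0.42, SE 0.11, adjusted p = 0.0204). In KO it was at 105.7, 78.92 and 93.09 CPM without and 116, 113.1 and 130.1 CPM with curdlan (log2 0.37, SE 0.11, adjusted p = 0.029). The curdlan libraries were the higher ones in both genotypes. The WT call was lost without WT unstimulated 1 or WT curdlan 4 (adjusted p = 0.0786 and 0.106), and the KO call without KO unstimulated 2 or 5 or KO curdlan 5 (adjusted p = 0.0577 to 0.104).

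Tfeb moved the other way. It was at 36.14, 37.69 and 33.97 CPM in WT curdlan, below the 3 WT unstimulated libraries, a difference of log2 -0.25 that did not pass (adjusted p = 0.332). In KO curdlan it was at 43.56, 44.49 and 26.41 CPM, lower than in KO unstimulated by the test (log2 -0.50, SE 0.17, adjusted p = 0.0433), with library 4 at 44.49 CPM just above KO unstimulated 5 at 43.93 CPM. The call was lost without KO unstimulated 1 or 2 or KO curdlan 5 (log2 -0.46 to -0.30, adjusted p = 0.077 to 0.137).

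Neu1, the sialidase of the lysosome, rose in WT from 119.4, 109.9 and 108 CPM to 139.7, 131.3 and 140.4 CPM (log2 0.29, SE 0.09, adjusted p = 0.0413), with no overlap. The call was lost without WT unstimulated 2 or 4 or any 1 of the WT curdlan libraries (adjusted p = 0.0658 to 0.131). In KO, Cd63 rose from the 394.1 to 423.2 CPM given above to 497.8 to 676.8 CPM (log2 0.51, SE 0.12, adjusted p = 0.00725). Npc2 (log2 0.30, SE 0.07, adjusted p = 0.0107) and Atp6v1h (log2 0.37, SE 0.09, adjusted p = 0.00885) also rose there, each with all curdlan libraries above the unstimulated ones.

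Scarb2, the receptor that brings glucocerebrosidase to the lysosome, rose in KO from 99.69, 88.55 and 87.58 CPM to 107.2, 106.1 and 105.4 CPM (log2 0.21, SE 0.07, adjusted p = 0.0434). Leaving out KO unstimulated 2 or 5 or any 1 of the KO curdlan libraries ended that call (adjusted p = 0.0744 to 0.13). Glb1 fell in KO from 71.98, 61.15 and 59.71 CPM to 57.01, 54.8 and 47.02 CPM (log2 -0.28, SE 0.09, adjusted p = 0.0337), and Ctsh, an aminopeptidase among the cathepsins, from 354.2, 298.7 and 300.9 CPM to 279.6, 264.8 and 261.5 CPM (log2 -0.24, SE 0.08, adjusted p = 0.0319). Both were lower in every curdlan library, and both calls were lost without KO unstimulated 1 or KO curdlan 4 or 5 (adjusted p = 0.0555 to 0.162 for Glb1 and 0.0681 to 0.151 for Ctsh).

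In WT, same-numbered libraries with and without curdlan deviated together (r 0.60 and 0.44 for numbers 1 and 2), though weakly for number 4 (0.22). A fit with the library number as a block (replicate block) called 7 members higher and 6 lower, where 38.3% of all genes passed. It added Ctsk (log2 0.42, adjusted p = 0.000241), Atp6v1h (log2 0.25, adjusted p = 0.00215) and Atp6v1a (log2 0.19, adjusted p = 0.0258) to the genes that rose. Sqstm1, Ctsl, Mitf (log2 0.42, adjusted p = 0.000146) and Neu1 (log2 0.29, adjusted p = 0.00137) passed as higher under the block too. The losses of the Mitf and Neu1 calls given above come from fits without the block, and leaving out libraries was not tried with it. Those that fell under the block were Tfeb (log2 -0.25, adjusted p = 0.00754), Psap (log2 -0.19, adjusted p = 0.00851), Laptm5 (log2 -0.16, adjusted p = 0.0294), Grn (log2 -0.15, adjusted p = 0.038), Ctsh (log2 -0.15, adjusted p = 0.0403) and Hexa (log2 -0.14, adjusted p = 0.0437). Each of the 3 WT curdlan values of Psap was below the 15050, 14670 and 14360 CPM of the WT unstimulated libraries.

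Whether the response to curdlan itself differed between the genotypes was tested as the difference of the 2 changes. No member passed in either direction (0 higher and 0 lower by edgeR, and 0 by DESeq2), where 5.21% of all genes passed (1.61% higher and 3.6% lower), and 4 members had an unadjusted p under 0.05. These were Sqstm1 (difference in log2 change -0.60, 95% interval -1.09 to -0.11, adjusted p = 0.124), Cd63 (0.46, interval 0.09 to 0.82, adjusted p = 0.116), Atp6v1b2 (0.43, interval 0.10 to 0.75, adjusted p = 0.106) and Npc2 (0.25, interval 0.02 to 0.47, adjusted p = 0.162). For Ctsl the difference was 0.03 with an interval from -0.46 to 0.51, and for Mitf -0.05 with an interval from -0.40 to 0.30. The data do not exclude differences inside these intervals.

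Without KO curdlan library 2, Sqstm1 (difference -0.83, adjusted p = 0.0108) and Cd63 (0.55, adjusted p = 0.0421) passed. With the replicate block, 3 members were higher and 3 lower in the difference, where 14.1% of all genes passed: Lamp2 (0.27, adjusted p = 0.0493), Cd63 (0.31, adjusted p = 0.0449) and Atp6v1b2 (0.28, adjusted p = 0.0403) on one side, and Sqstm1 (-0.53, adjusted p = 0.0101), Tfeb (-0.36, adjusted p = 0.0293) and Npc1 (-0.33, adjusted p = 0.0366) on the other. In the libraries labelled KO that block rests on numbers 2 and 5, which are shared by both states, too few to show that the numbers pair those libraries.

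The 10 members with CACGTG in a promoter window and 21 matched members without it were set side by side. With the letters, 6 of 10 were higher in KO without curdlan (median log2 0.32) and 5 with it (median 0.27), and 1 was lower with curdlan, where 21.1% of all genes were higher without curdlan and 24.7% with it. Among the 21 without the letters, 5 were higher and 1 lower without curdlan (median 0.10) and 9 higher and 2 lower with it (median 0.14). In response to curdlan, 1 of the 10 rose in WT, and 1 rose and 1 fell in KO, where 11.4% of all genes rose in WT and 14% rose and 14.6% fell in KO. Of the 10, Lamp1, Gla, Glb1 and Ctsf no longer passed without curdlan under scaling by library totals, nor Lamp1, Gla, Ctsf and Atp6v1a with curdlan. Gaa then passed as lower in KO without curdlan (log2 -0.28, adjusted p = 0.0441) and with it (log2 -0.52, adjusted p = 0.00129). Other members also lost calls under that scaling, as given above. These counts describe the members and were not tested.

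The other genes of the pathway were taken from lists of lysosomal, autophagy and phagosome genes, 155 of which were tested. Without curdlan 57 were higher and 22 lower in KO than in WT (median log2 0.13), and with curdlan 55 and 33 (median 0.14). Of these pathway genes 51% and 56.8% passed, near the 44.4% and 51.4% of all genes tested. Curdlan raised 18 and lowered 7 of them in WT (median -0.01), and raised 25 and lowered 30 in KO (median -0.04), where 19.8% and 28.6% of all genes passed. The difference in response passed for 2 higher and 8 lower genes (median -0.05). Scaling by library totals alone left more genes lower than higher in every comparison: 25 higher and 48 lower in KO without curdlan, 23 and 56 with it, and with curdlan 13 higher and 42 lower in WT and 12 and 71 in KO.

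Among 14 other V-ATPase subunits, curdlan raised 1 in WT and 9 in KO (5 under scaling by library totals, median log2 0.35 and 0.15), and 0 fell in either. Over all genes 11.4% rose in WT and 14% in KO. Atp6v1e1, of the peripheral stalk, went from 122 ± 3.5 to 172 ± 6.1 CPM in WT (SD, n = 3, log2 0.49, adjusted p = 0.000158). In KO it went from 151 ± 4.4 to 279 ± 13 CPM (log2 0.89, adjusted p = 2.53e-06). Its difference in response passed (0.40, SE 0.09, adjusted p = 0.0237), the only 1 of the 14 that did, where 5.21% of all genes passed. Tcirg1, the a3 subunit used in lysosomes and osteoclasts, rose in KO from 662 ± 39 to 1040 ± 160 CPM (log2 0.65, adjusted p = 0.00227). In WT it was at 477 ± 71 CPM without and 568 ± 36 CPM with curdlan, a change that did not pass. Its difference in response did not pass either. Between genotypes with curdlan, 11 of the 14 were higher in KO and 1, Atp6v0a2, was lower (9 and 1 under scaling by library totals), where 24.7% of all genes were higher and 26.8% lower.

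Of 24 genes of the autophagy machinery, 4 rose and 12 fell in KO with curdlan (1 and 17 under scaling by library totals), and in WT 2 rose and 4 fell (2 and 10). Over all genes 14% rose and 14.6% fell in KO, and 11.4% rose and 8.4% fell in WT. Nbr1, a receptor related to p62, fell in KO from 61.5 ± 5.2 to 31.2 ± 4.2 CPM (log2 -0.98, adjusted p = 5.19e-05), and the kinase gene Ulk1, which starts autophagosome formation, from 52 ± 4.3 to 26.4 ± 3.6 CPM (log2 -0.97, adjusted p = 4.95e-05). Optn, another cargo receptor, rose in WT from 17.9 ± 1.1 to 43.6 ± 3.5 CPM (log2 1.28, adjusted p = 2.35e-06), and in unstimulated KO it stood at 58 ± 2.2 CPM. The difference in response passed for all of Optn (-0.81, adjusted p = 0.00652), Nbr1 (-0.78, adjusted p = 0.0126), Ulk1 (-0.68, adjusted p = 0.0214) and Atg13 (-0.59, adjusted p = 0.0106), the 4 of 24 in this list that did, where 5.21% of all genes passed.

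Of 25 genes of phagosome maturation and fusion, 5 rose and 0 fell in WT with curdlan (5 and 5 under scaling by library totals), and 5 rose and 6 fell in KO (2 and 12). The 20% of the list that passed in WT was near the 19.8% of all genes, and in KO 28.6% of all genes passed. Rab7, the GTPase of late phagosomes, went from 513 ± 28 to 820 ± 40 CPM in WT (log2 0.68, adjusted p = 0.000389) and from 843 ± 34 to 1750 ± 220 CPM in KO (log2 1.05, adjusted p = 1.7e-05). Rab32, which takes part in making lysosome-related organelles, rose in WT from 116 ± 7.9 to 160 ± 11 CPM (log2 0.45, adjusted p = 0.00276), and its difference in response was -0.79 (SE 0.12, adjusted p = 0.00611), with 77.8 ± 4.8 CPM in KO curdlan. Rab20, of the same route, rose in WT from 23.5 ± 2.2 to 59 ± 3 CPM (log2 1.33, adjusted p = 0.00681).

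The TFEB relatives were among 17 genes of nutrient sensing on the lysosome. Tfec fell in WT from 62.7 ± 2.1 to 42.1 ± 1.7 CPM (log2 -0.58, adjusted p = 0.000191), and its difference in response passed (0.61, SE 0.10, adjusted p = 0.00896). Tfe3 was at 81.2 ± 2.6 CPM in WT unstimulated and 123 ± 4.3 CPM in KO unstimulated (log2 0.60, SE 0.06, adjusted p = 6.34e-06), and it rose with curdlan to 101 ± 2.9 CPM in WT and 145 ± 4.5 CPM in KO (adjusted p = 0.00231 and 0.0111).

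Among 33 other hydrolases, 10 were higher and 5 lower in KO without curdlan (6 and 10 under scaling by library totals), a share near the 44.4% of all genes that passed (21.1% higher and 23.3% lower). The same background holds for the membrane and sorting lists that follow. Lgmn, an asparaginyl endopeptidase that activates cathepsins, was at 204 ± 14 CPM in WT and 465 ± 81 CPM in KO (log2 1.19, adjusted p = 8.95e-05), and the phosphatase gene Acp2 at 74 ± 0.8 and 159 ± 11 CPM (log2 1.11, adjusted p = 1.85e-07). Of 22 other membrane proteins 9 were higher and 2 lower (7 and 5 under scaling by library totals), led by the channel gene Mcoln2 (32.7 ± 1.2 CPM in WT and 108 ± 7.9 CPM in KO, log2 1.73, adjusted p = 2.4e-08). Of 20 genes that sort enzymes to the lysosome 7 were higher and 5 lower (1 and 8 under scaling by library totals). The receptors Sort1 (168 ± 23 and 75.2 ± 11 CPM, log2 -1.16, adjusted p = 1.34e-05) and Igf2r, the large mannose 6-phosphate receptor (119 ± 18 and 62.4 ± 13 CPM, log2 -0.94, adjusted p = 0.000842), were lower in KO.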

How the data were processed

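RNA of 12 BMDC libraries was prepared with an Illumina TruSeq kit (v2), per the labels' protocols; this kit does not mark strand, so reads of genes that overlap on opposite strands cannot be told apart. The deposited counts are whole, unscaled reads for each gene. Tools named, per the submitters' processing notes, were DESeq2 1.8.2, featureCounts 1.4.6, FastQC 0.11.1, SAMtools 1.2 and TopHat2 (written as 2.4.2a). The genome build, the annotation and the counting settings were not given in the sources used here. Tables of comparisons that the authors deposited hold log2 fold changes, their standard errors and DESeq2 p-values, per the file headers. Another 24 columns of values per library in those tables were not used.

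Genes passed edgeR's filterByExpr by group (18981 of 37991, holding at least 99.97% of every library's counts). Libraries were scaled by TMM, CPM use the effective library sizes, and the 4 group means of all 12 libraries were fitted in 1 edgeR 4.0.16 quasi-likelihood model (R 4.3.3, two-sided), with Benjamini-Hochberg adjustment over all tested genes and a threshold of 0.05. The script was tested on simulated data. Replicates differed by more than counting noise (chi-square per degree of freedom 9.86 to 83.9), and none were merged.

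Library numbers were checked as pairs by correlating deviations from group means. WT numbers 1, 2 and 4 gave r of 0.60, 0.44 and 0.22 between states, and WT libraries of unlike number gave -0.5 to 0.14. Libraries of different genotype reached 0.33, above the 0.22 of number 4, so the pairing in WT rests mainly on numbers 1 and 2. KO numbers 2 and 5 gave 0.40 and 0.75, which with 2 pairs does not settle whether they pair. Numbers across genotypes gave -0.29 to 0.14 within a state.

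Every member past the threshold could be named with its values, and of each other pathway list up to 4 genes past the threshold by size of change. Members and lists were chosen with earlier results of these data known. Alternatives were upper-quartile scaling, library totals, no filter, a mean log2 CPM of at least 2, DESeq2 1.42.0, the 2 groups alone, the replicate block, and leaving out each library. Coordinates are those of GENCODE M21 (GRCm38), and promoters those of RefSeq (GRCm38.p6). Protein sequences were not used here.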

Additional observations from a re-analysis of the deposited data

How the results depend on the processing

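Over 598 values of called members under the alternatives, 510 stayed past the threshold, 88 did not, and 0 changed direction. Scaling by library totals alone moved the median of all genes by more than 0.1: to -0.17 for curdlan in WT, -0.20 for curdlan in KO, -0.19 for KO against WT unstimulated and -0.24 with curdlan. Under it the members' medians were -0.13, -0.13, -0.02 and -0.04 in the same order. It gave 2 higher and 6 lower members for curdlan in WT, 1 and 10 for curdlan in KO, 7 and 9 for KO against WT unstimulated, and 9 and 11 with curdlan. Fitting the 2 groups alone gave 7 higher and 2 lower for curdlan in WT and 2 and 0 for curdlan in KO. The stricter filter gave 10 higher for curdlan in KO, upper-quartile scaling gave 2 lower for KO against WT unstimulated and no filter gave 5 lower with curdlan. With the replicate block (library number within genotype), 38.3%, 29.6% and 14.1% of all genes passed for curdlan in WT, curdlan in KO and the difference. Among members it gave 7 higher and 6 lower for curdlan in WT and 11 and 3 in KO. For the difference in response it gave 3 higher and 3 lower. In KO, where 2 shared numbers do not settle the pairing, it left out Ctsh (adjusted p = 0.106) and Glb1 (0.0508) and added Sqstm1 (log2 0.51, adjusted p = 0.000874), Neu1, Lamp2, Gla and Ctsc as higher and Npc1 and Ctsd as lower. Across genotypes, where the numbers do not pair libraries, the block gave 19 higher and 1 lower without curdlan and 22 and 5 with it. Of all genes 45.8% and 52.5% passed there. Leaving out 1 library at a time gave, as higher and lower, 2 to 3 and 0 to 0 for curdlan in WT, 4 to 8 and 0 to 5 for curdlan in KO, 0 to 1 and 0 to 1 for the difference, 10 to 16 and 1 to 3 for KO against WT unstimulated, and 13 to 19 and 2 to 3 with curdlan. The cause of these changes was not tested.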

Other observations

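The authors' deposited table named an interaction holds log2 values that differ from the KO against WT unstimulated changes computed here by a median of 0.01 over 18981 genes, and by at most 0.02 among the 37 members (Ctsk). The same values of the authors' deposited table differ from the difference in curdlan response computed here by a median of 0.47 over all genes and by up to 2.36 among the members (Sqstm1). In the authors' deposited table of KO against WT with curdlan, 15 members are higher and 4 lower at an adjusted p under 0.05, and in the authors' deposited table named an interaction 14 are higher and 1 lower. The shares of all genes that pass there were not computed.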
